A study of Mus musculus with 6 samples.

Results

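The apolipoprotein genes of the mouse liver were examined after acetaminophen overdose. The group comprised 10 genes that were found in the deposited gene table by their symbols, namely Apoa1, Apoa2, Apoa4, Apoa5, Apob, Apoc1, Apoc3, Apoe, Apoh and Apom, out of 34745 genes listed. All 10 were among the 13734 genes with enough counts to be tested. RNA-Seq of liver tissue was carried out in wild-type (WT) mice in 2 groups of 3 samples each, one given saline and one given acetaminophen (APAP) at 300 mg/kg and sampled at 12 hours. Per the study's methods the animals were young adult males of the C57BL/6J strain, and APAP was given as a single injection after a 12-hour fast. 5 libraries were analysed here, APAP 1 and APAP 3 and the libraries WT1, WT2 and WT3, while APAP 2 was not analysed here. The WT libraries were taken for saline, as the remaining columns carry the name of APAP, and they match no single saline sample by name. The question was how an APAP overdose, a model of drug-induced liver injury, changed the liver transcriptome.

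Apolipoproteins are the protein part of lipoproteins, the particles that carry fat and cholesterol in blood, and the hepatocyte is their main source besides the intestine. ApoB is the backbone on which very-low-density lipoprotein is built, ApoA-I and ApoA-II are the chief proteins of high-density lipoprotein (HDL), and the small exchangeable apolipoproteins move between particles and direct lipases and receptors to them. In hepatocytes, the transcription factors HNF4A, PPARα and CREBH (the product of Creb3l3) control many of these genes, and Apoa4 is known as a gene that responds to fasting and to fat in the liver.

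The libraries held 13378445 to 15976339 counts, and the scaling factors of the trimmed mean of M values (TMM) were 1.27 and 1.09 in APAP and 0.783 to 0.980 in saline. The libraries differed in sex-linked transcripts by group. Xist, which is transcribed from the inactive X, averaged 1.25 CPM (counts scaled to a common library size) in APAP and 695 CPM in saline, whereas Ddx3y, a Y-linked gene, averaged 70.3 CPM in APAP and 0.0223 CPM in saline. The saline libraries therefore went against the male sex given in the methods, and sex-linked expression and APAP treatment cannot be told apart in any comparison that follows. The study describes individual biological repeats for its experiments in general, but the labels tie no library to an animal, so p-values are taken to measure only the spread between these libraries.

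APAP was accompanied by a large rise of Apoa4 and a fall of Apoa2, and by levels of most other apolipoprotein transcripts that lay below those of saline without passing the test. A gene was called where the quasi-likelihood test of edgeR gave a p under 0.05 after Benjamini-Hochberg adjustment over all tested genes. By this rule 2 of the 10 genes were called, Apoa4 higher and Apoa2 lower, where 7.23% of all tested genes were called. The same 7.23% is the share to set beside each later count of genes called by this test. With a looser rule after the study's thresholds, a change of 1.5-fold or more and a P under 0.05, read here as unadjusted, 6 of the 10 genes passed, 1 higher and 5 lower, where 23.5% of all tested genes passed. For 8 of the 10 genes the APAP and saline values, in CPM after TMM scaling, were fully separate, against 44.1% of all tested genes. In 7 of these 8 genes both APAP libraries lay below all saline libraries, against 20.1% of all tested genes. The median log2 fold change of the 10 genes was -0.93 and that of all tested genes was 0.03. These genes are secreted products of the hepatocyte, and a lower level in bulk tissue can come from fewer hepatocytes or from less RNA per hepatocyte, which cannot be told apart here.

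**Figure D1:**
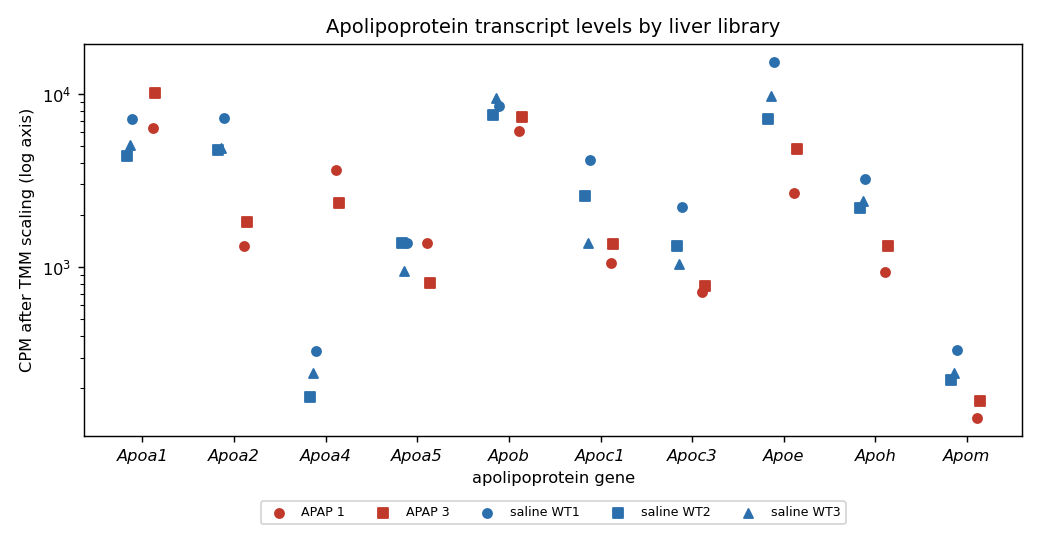
CPM after TMM scaling (log axis) of the 10 apolipoprotein genes, with 1 point per liver library, APAP in red and saline in blue. Both APAP points lie above the saline points for Apoa4 and below them for 7 genes, and the groups overlap for Apoa1 and Apoa5.

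Scaling by library size alone, without TMM, moved the median log2 fold change of all tested genes from 0.03 to 0.42 and that of the 10 genes from -0.93 to -0.51. It raised the share of called genes that were higher in APAP from 51.2% to 77.8% and the number of the 10 genes fitted higher from 2 to 4. Apoa4 and Apoa2 were called in the same directions under that scaling. The separation of the groups also depended on scaling. As a percent of all counts, Apob was 0.779 and 0.799 in APAP and 0.663, 0.745 and 0.885 in saline. Apoc1 was 0.134 and 0.149 in APAP and 0.325, 0.251 and 0.130 in saline, so both genes overlapped. Apoa1, at 0.807 and 1.10 in APAP and 0.558, 0.428 and 0.478 in saline, lay wholly above saline.

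Apoa4, which encodes a large exchangeable apolipoprotein of chylomicrons and HDL, lies on the plus strand at chr9:46240696-46243459 (GRCm38). Its level was 3633 CPM in APAP 1 and 2340 CPM in APAP 3. In saline it was 327 CPM in WT1, 178 CPM in WT2 and 244 CPM in WT3. Every APAP value was thus several times above every saline value. The mean was 2986 CPM ± 915 (SD, n = 2) in APAP and 249.8 CPM ± 74.8 (SD, n = 3) in saline, a 12.0-fold difference. The log2 fold change was 3.58 with an SE of 0.38 (adjusted p = 0.00521, edgeR). Apoa4 was called in each of the 13 alternative settings tried, including those that left out a library, with log2 fold changes from 3.23 to 4.03. Antisense transcripts overlap the Apoa4 locus, and whether counting used strand is not given in the sources used here. The antisense gene Gm10680 had 15 and 7 counts in APAP and 0, 3 and 0 counts in saline, against 61835 and 37851 counts of Apoa4 in APAP. No 50-base stretch of the longest protein-coding Apoa4 transcript was shared with a transcript of another annotated gene, read in the same orientation. The opposite strand was not compared, so this does not cover the antisense genes.

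Apoa4 is expressed most strongly in the small intestine, and markers of enterocytes were therefore read in the same libraries. 3 of 5 enterocyte markers, Alpi, Sis and Lct, had no count in any library. The other markers, Vil1 and Fabp2, averaged 0.881 and 51.5 CPM in APAP and 0.202 and 25.6 CPM in saline. The summed level of the 5 markers was 47.9 to 56.9 CPM in APAP and 13.2 to 39.4 CPM in saline. The part of the markers other than Alpi, Sis and Lct in the Apoa4 result was not tested.

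The sequence before the start of each called gene is shown for the 2 called genes, since these carry the changes that passed the test. Windows from RefSeq (GRCm38.p6) matched 8 of the 10 genes, the exceptions being Apoc1 and Apoc3. The Apoa4 window at chr9:46240594-46240695 (plus strand) ends at the base before the annotated start. Capitals mark CAAAGTTCA, a form of the direct repeat that HNF4A can bind, which begins at base 69 of the window.
Apoa4: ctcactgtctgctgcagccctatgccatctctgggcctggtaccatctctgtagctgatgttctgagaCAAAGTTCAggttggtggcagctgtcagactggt
The Apoa2 window at chr1:171224804-171225053 (plus strand) likewise ends at the base before the start. Capitals mark TATAAA, the TATA motif, which begins at base 39.
Apoa2: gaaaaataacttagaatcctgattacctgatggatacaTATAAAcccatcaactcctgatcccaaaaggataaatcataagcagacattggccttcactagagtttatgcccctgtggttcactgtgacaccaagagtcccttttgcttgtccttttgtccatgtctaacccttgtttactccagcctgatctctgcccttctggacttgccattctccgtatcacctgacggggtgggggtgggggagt
Both strands of 32851 windows of 300 bases were searched for CAAAGTTCA, CAAAGTCCA and TATAAA, motifs that do not overlap each other here. CAAAGTTCA was held by 0.39% of windows, CAAAGTCCA by 0.475% and TATAAA by 13.6%. Over the whole windows of the 8 matched genes, CAAAGTTCA was found for Apoa4 alone, CAAAGTCCA for none and TATAAA also for Apoa5, Apob and Apoe. The Apoe match lay in a window inside the gene, while the Apoe window before the annotated start held none of the motifs. The Apoh window held 0 bases before the annotated start and the Apom window 1, so these genes were not compared for sequence before the start. A match is a description of the letters, not of a site in use.

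Apoa2 encodes the second most abundant HDL protein and lies at chr1:171225054-171226379. Its level was 1316 CPM in APAP 1 and 1816 CPM in APAP 3. In saline it was 7285 CPM in WT1, 4722 CPM in WT2 and 4900 CPM in WT3. The highest APAP value was below the lowest saline value by more than the spread within either group. The mean was 1566 CPM ± 353 (SD, n = 2) in APAP and 5635 CPM ± 1431 (SD, n = 3) in saline, 3.60-fold lower in APAP. The log2 fold change was -1.85 with an SE of 0.39 (adjusted p = 0.0404, edgeR). The call did not hold when any 1 of the 5 libraries was left out, with adjusted p of 0.215 without APAP 1, 0.0983 without APAP 3, 0.0675 without WT1, 0.123 without WT2 and 0.0670 without WT3. Over those fits the log2 fold change lay between -2.11 and -1.61. Calls over all genes also fell, from 993 to 510 without WT1, 165 without WT2 and 922 without WT3. The lost calls given for other genes stand beside that general fall.

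Apoa1, which encodes the main structural protein of HDL and the activator of LCAT, lies at chr9:46228580-46230466. It measured 6342 CPM in APAP 1 and 10082 CPM in APAP 3. The saline values were 7136 CPM in WT1, 4367 CPM in WT2 and 5105 CPM in WT3. After TMM scaling the groups overlapped, since APAP 1 lay below WT1. As a percent of all counts, both APAP libraries lay above all saline libraries. A log2 fold change of 0.57 with an SE of 0.40 did not pass (adjusted p = 0.437, edgeR), and with library size alone it was 0.97 (adjusted p = 0.0554). Within a library, there were 4.82 counts of Apoa1 for each count of Apoa2 in APAP 1 and 5.55 in APAP 3, against 0.980, 0.925 and 1.04 in saline. The ratio of the 2 HDL genes, which does not depend on scaling between libraries, was therefore higher in both APAP libraries than in any saline library. An exact two-sided permutation test gave p = 0.2, which is the smallest p that 2 against 3 libraries allow.

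Apom, which encodes the HDL carrier of sphingosine-1-phosphate, lies at chr17:35128997-35132050. It measured 134 and 168 CPM in APAP 1 and APAP 3 and 334, 223 and 245 CPM in WT1, WT2 and WT3. The groups did not overlap. Its log2 fold change was -0.83 with an SE of 0.28, with an unadjusted P of 0.0208 and an adjusted p of 0.125.

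Apoe encodes a ligand for the hepatic uptake of remnant particles, and lies on the minus strand at chr7:19696109-19699166. Its level was 2683 CPM in APAP 1 and 4786 CPM in APAP 3. In saline it was 15340 CPM in WT1, 7149 CPM in WT2 and 9703 CPM in WT3. Both APAP libraries were below all saline libraries, while the saline values themselves spread widely. The log2 fold change was -1.52 with an SE of 0.51, and the unadjusted P of 0.0201 became an adjusted p of 0.123 by edgeR's quasi-likelihood test. The adjusted p was 0.0180 by edgeR's likelihood ratio test, 0.0207 by its exact test and 0.00324 by DESeq2. Macrophages also make Apoe, and the summed level of 11 macrophage and Kupffer cell markers was 339 to 577 CPM in APAP and 350 to 513 CPM in saline, with none of the 11 called by edgeR's quasi-likelihood test, 2 at an unadjusted P under 0.05, and 1 each called by the likelihood ratio test, the exact test and DESeq2. The part of these cells in the Apoe level was not tested.

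Apoh, which encodes β2-glycoprotein I, a phospholipid-binding plasma protein, lies at chr11:108343354-108414396. It measured 931 and 1331 CPM in APAP 1 and APAP 3 and 3219, 2192 and 2403 CPM in WT1, WT2 and WT3. The groups did not overlap. The log2 fold change was -1.20 with an SE of 0.35 (unadjusted P = 0.0107, adjusted p = 0.0872, edgeR), and the gene was called by the likelihood ratio test, the exact test and DESeq2 (adjusted p = 0.0167, 0.0185 and 0.00101). Prkca overlaps the Apoh locus on the other strand and had 173 to 398 counts, against 15848 to 35971 counts of Apoh.

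Apoc1 and Apoc3 encode small exchangeable apolipoproteins, of which ApoC-III inhibits lipoprotein lipase and the uptake of remnants. Apoc3, at chr9:46232933-46235636 on the minus strand, measured 716 and 781 CPM in APAP 1 and APAP 3 and 2211, 1331 and 1039 CPM in WT1, WT2 and WT3. Its log2 fold change was -1.03 with an SE of 0.39 (unadjusted P = 0.0338, adjusted p = 0.162, edgeR), and DESeq2 gave an adjusted p of 0.0350. Apoc1, at chr7:19689484-19692658 on the minus strand, measured 1051 and 1364 CPM in APAP and 4148, 2567 and 1386 CPM in WT1, WT2 and WT3. For Apoc1 the highest APAP library and WT3 were nearly equal, and the log2 fold change of -1.16 with an SE of 0.50 did not pass (adjusted p = 0.206, edgeR).

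Apob, which encodes the large structural protein of very-low-density and low-density lipoprotein, lies at chr12:7977648-8016835. It measured 6122 and 7328 CPM in APAP 1 and APAP 3 and 8475, 7605 and 9449 CPM in WT1, WT2 and WT3. The APAP values lay below the saline values by a small margin after TMM scaling, and overlapped them as a percent of all counts. Its log2 fold change was -0.34 with an SE of 0.35 (adjusted p = 0.604, edgeR), and it was 0.05 with library size alone. Apoa5, which encodes an activator of triglyceride lipolysis, lies at chr9:46268633-46271919. It measured 1376 and 812 CPM in APAP 1 and APAP 3 and 1368, 1369 and 954 CPM in WT1, WT2 and WT3. The groups overlapped, and the log2 fold change of -0.17 with an SE of 0.35 did not pass (adjusted p = 0.808, edgeR). Its sign turned to 0.26 with library size alone and to 0.15 without APAP 3.

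**Figure D2:**
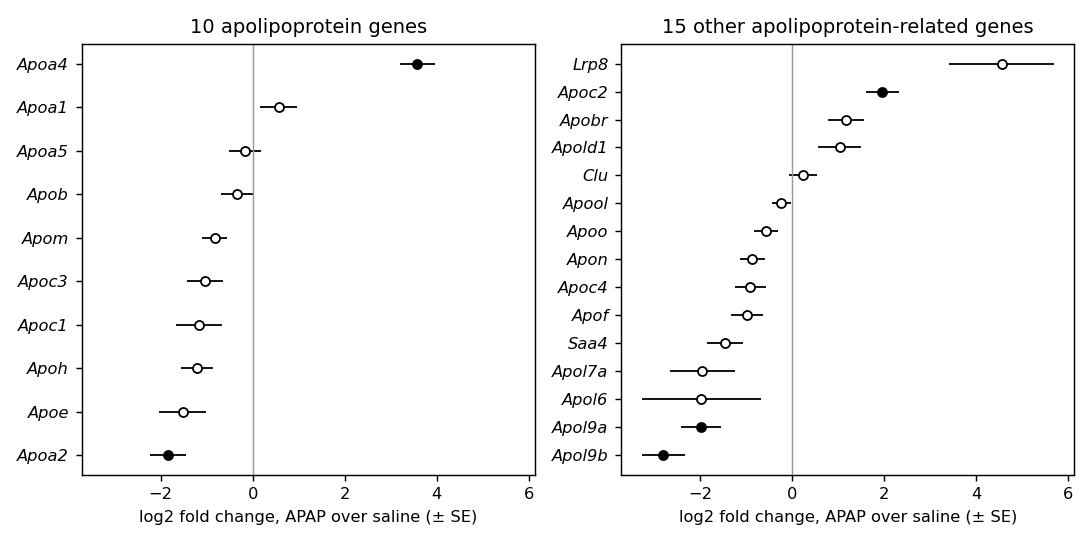
Log2 fold changes of APAP over saline with their SE for the 10 apolipoprotein genes (left) and 15 other apolipoprotein-related genes (right), with filled points for an adjusted p under 0.05. Apoa4 at 3.58 and Apoa2 at -1.85 are filled on the left, and Apoc2, Apol9a and Apol9b on the right.

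The order of the apolipoprotein transcripts was compared per length, as CPM per kb of exonic bases. In saline, Apoa2 stood first at 10494 ± 2665 CPM per kb (SD, n = 3), followed by Apoe at 5019 ± 1960, Apoa1 at 4479 ± 1160 and Apoc1 at 3629 ± 1862. Apoh at 1634 ± 340, Apoc3 at 1506 ± 602, Apob at 611 ± 66.2, Apoa5 at 488 ± 94.9 and Apom at 264 ± 58.1 came next, and Apoa4 stood last at 138 ± 41.2. The mean ± SD ranges of Apoe and Apoa1 and of Apoh and Apoc3 overlapped, and each pair kept its order in 2 of 3 saline libraries. The ranges also overlapped for Apoa1 and Apoc1, Apoc1 and Apoh, and Apob and Apoa5, though within each of the 3 saline libraries the first of the pair was higher.

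In APAP, Apoa1 stood first at 6644 ± 2140 CPM per kb (SD, n = 2). Apoa2 at 2916 ± 658, Apoe at 1747 ± 695, Apoa4 at 1645 ± 504 and Apoc1 at 1623 ± 298 formed a run of neighbours whose ranges overlapped. Apoc3 at 738 ± 45.3, Apoh at 710 ± 178, Apob at 483 ± 61.2 and Apoa5 at 434 ± 158 formed a second such run, and Apom stood last at 149 ± 23.4. Within these runs Apoa2 exceeded Apoe, and Apoh exceeded Apob, in both APAP libraries, while the other neighbours changed places between APAP 1 and APAP 3. Among all genes of a library ordered by CPM per kb, Apoa4 ranked 26 in APAP 1 and 47 in APAP 3, and 306, 446 and 318 in WT1, WT2 and WT3. The ranks of Apoa1 moved little by comparison, from 16, 18 and 17 in saline to 11 and 8 in APAP.

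The 10 genes together took a similar share of all counts in both groups. The share was 3.09% in APAP 1 and 3.36% in APAP 3, and 3.90%, 3.10% and 3.32% in WT1, WT2 and WT3, with 95% Wilson intervals that cover counting error only and were no wider than 0.0201 percentage points. The difference of -0.217 percentage points did not exceed the spread between libraries (exact two-sided permutation test, p = 0.8) and was 0.0126 without WT1. After TMM scaling the summed share was 2.76% ± 0.460 (SD, n = 2) in APAP and 3.90% ± 0.958 (SD, n = 3) in saline, with p = 0.2 by the same exact test.

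The make-up of that share differed more than its size. Of all counts on the 10 genes, Apoa4 took 14.9% in APAP 1 and 7.59% in APAP 3, and 0.562% to 0.688% in saline. Apoa1 took 26.1% and 32.7% in APAP and 13.8% to 14.4% in saline. Conversely, Apoe took 11.0% and 15.5% in APAP and 22.5% to 30.8% in saline, and Apoa2 took 5.41% and 5.89% in APAP and 13.8% to 14.9% in saline. Apob took 25.2% and 23.8% in APAP and 17.0% to 26.7% in saline, so that the groups overlapped.

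**Figure D3:**
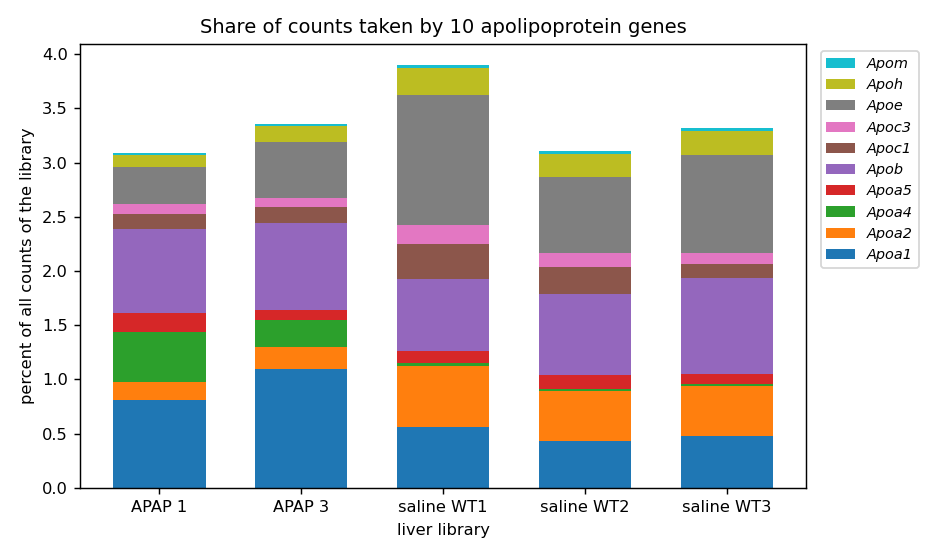
Percent of all counts of each liver library that fell on the 10 apolipoprotein genes, stacked by gene. The bars reach 3.09% and 3.36% in APAP and 3.10% to 3.90% in saline, with wider Apoa4 and Apoa1 segments and narrower Apoa2 and Apoe segments in APAP.

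Alb, the albumin gene and the most abundant secreted product of hepatocytes, was used as a reference within each library. Alb took 6.56% and 9.79% of counts in APAP 1 and APAP 3 and 9.31% to 11.3% in saline. The ratio to Alb did not overlap between groups for 6 of the 10 genes, with Apoa1, Apoa4 and Apob above saline and Apoa2, Apoe and Apoh below, where 52.2% of all tested genes did not overlap and 48.5% lay above saline. Apoa1 per Alb was 0.123 and 0.112 in APAP and 0.0553, 0.0459 and 0.0424 in saline. With Ttr, the transthyretin gene, as reference 8 of the 10 genes did not overlap, all of them above saline, where 84.3% of all tested genes did not overlap and 83.1% lay above saline. The ratios of Apoa2 and Apoe to Ttr overlapped. Ttr itself measured lower in APAP, and the count of 8 stood near that background. Each of these 20 comparisons rests on 2 against 3 libraries, for which the exact permutation test cannot go below p = 0.2.

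Apoa1, Apoc3, Apoa4 and Apoa5 lie side by side on chromosome 9, yet their values did not move alike. Apoa4 rose, while Apoc3, which lies between Apoa1 and Apoa4, measured lower in both APAP libraries than in saline. Within a library there were 5.08 and 2.997 counts of Apoa4 for each count of Apoc3 in APAP, and 0.148, 0.134 and 0.235 in saline. Per count of Apoa1, there were 0.573 and 0.232 counts of Apoa4 in APAP and 0.0459, 0.0408 and 0.0478 in saline. Of 10 other genes near this cluster, all were tested and 1 was called, where 7.23% of all tested genes were called. The called gene was Tagln, a smooth-muscle actin-binding protein gene that rose with a log2 fold change of 2.63 (SE 0.47, adjusted p = 0.0257, edgeR). The median log2 fold change of these 10 neighbours was -0.07. The Tagln call was kept without APAP 3 and lost without each other library (adjusted p from 0.0148 to 0.141 over the 5 fits), and the log2 fold change was 1.72 without APAP 1.

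**Figure D4:**
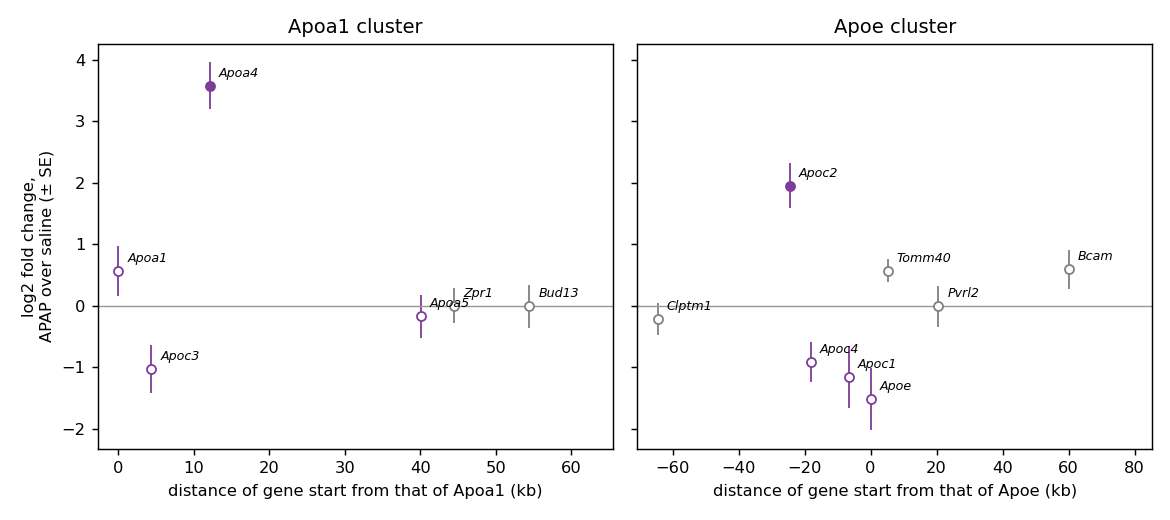
Log2 fold change of APAP over saline with SE against the distance in kb of each gene's lowest coordinate from that of Apoa1 (left) or Apoe (right), with apolipoprotein genes in purple, neighbours in grey and filled points for an adjusted p under 0.05. Apoa4 at 3.58 stands above Apoc3 at -1.03 in the left cluster, and Apoc2 at 1.95 above Apoe at -1.52 in the right.

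The Apoe cluster on chromosome 7 showed a similar contrast between neighbours. Apoc2, which encodes the cofactor that lipoprotein lipase requires, measured 610 and 396 CPM in APAP 1 and APAP 3 and 186, 107 and 96.7 CPM in WT1, WT2 and WT3. Apoc2 rose with a log2 fold change of 1.95 (SE 0.36, adjusted p = 0.0282, edgeR). The adjusted p was 0.153 without APAP 1, 0.0524 without APAP 3, 0.125 without WT2 and 0.0544 without WT3, and the call held without WT1. The deposited Apoc2 locus, chr7:19671579-19681423, also spans Apoc4. Of the 50-base words of the longest protein-coding Apoc2 transcript, 88.2% were shared with other genes, chiefly the readthrough gene Gm44805. The split of reads between these genes is therefore uncertain. Apoc4 measured 273 CPM ± 88.5 (SD, n = 2) in APAP and 514 CPM ± 120 (SD, n = 3) in saline, with a log2 fold change of -0.91 that did not pass (adjusted p = 0.148, edgeR).

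Within a library there were 2.90 and 1.18 counts of Apoc2 for each count of Apoc4 in APAP and 0.287, 0.223 and 0.233 in saline. The ratio of Apoc2 to Apoc3, the activator and the inhibitor of lipoprotein lipase, was 0.853 and 0.507 in APAP and 0.0841, 0.0803 and 0.0930 in saline. Both ratios were higher in every APAP library than in any saline library. Of 9 tested neighbours of the Apoe cluster, 1 was called, where 7.23% of all tested genes were called. The called gene was Bcl3, an NF-κB cofactor gene, with a log2 fold change of 1.02 (SE 0.20, adjusted p = 0.0341, edgeR). The Bcl3 call held without WT1 and was lost without each other library, with adjusted p up to 0.143.

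Of 24 other apolipoprotein-related genes, 15 were tested and 3 were called, Apoc2 higher and the closely related Apol9b and Apol9a lower. The median log2 fold change of the 15 was -0.87. Apol9b measured 17.0 and 15.3 CPM in APAP 1 and APAP 3 and 166, 114 and 58.5 CPM in saline, and fell by 2.80 on the log2 scale (SE 0.46, adjusted p = 0.0196, edgeR). Apol9a averaged 11.0 CPM ± 4.59 (SD, n = 2) in APAP and 44.0 CPM ± 16.9 (SD, n = 3) in saline, and fell by 1.99 (SE 0.43, adjusted p = 0.0421, edgeR). The pair shares 51.4% to 57.5% of its 50-base words, so the 2 values are not separate evidence. Both calls were lost without APAP 1, APAP 3 or WT2 (adjusted p from 0.0805 to 0.164), and that of Apol9a also without WT1 (adjusted p = 0.0899) and with library size alone (adjusted p = 0.0697). Apof, Apon and Saa4, which encode minor HDL and plasma apolipoproteins, had log2 fold changes of -0.99, -0.87 and -1.46, and these did not pass. Lrp8, the apolipoprotein E receptor 2 gene, had 33 and 82 counts in APAP and 0, 6 and 0 counts in saline (adjusted p = 0.0600, edgeR). Lrp8 passed the filter only through the APAP libraries, so its direction was largely set in advance.

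The genes that build and secrete lipoproteins did not pass the test. None of 18 assembly and secretion genes was called by edgeR's quasi-likelihood test. An unadjusted P under 0.05 was reached by 5 of them, and 1 was called by the likelihood ratio test, 1 by the exact test and 5 by DESeq2. Their median log2 fold change was -0.17. Mttp, which encodes the transfer protein that loads lipid onto ApoB, measured 365 CPM ± 46.0 (SD, n = 2) in APAP and 339 CPM ± 70.0 (SD, n = 3) in saline (log2 fold change 0.11, SE 0.27, adjusted p = 0.850, edgeR). Creb3l3, which encodes CREBH, measured 364 CPM ± 7.89 in APAP and 221 CPM ± 81.1 in saline (log2 fold change 0.72, SE 0.32, adjusted p = 0.230, edgeR).

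Of 17 genes that remodel lipoproteins in plasma, 13 were fitted lower and 4 higher. The test called 4 of the 17, 3 lower and 1 higher, and the median log2 fold change was -0.67. Pon1, the HDL-bound paraoxonase gene, measured 186 and 283 CPM in APAP 1 and APAP 3 and 1732, 1458 and 1266 CPM in WT1, WT2 and WT3. It fell by 2.66 on the log2 scale (SE 0.35, adjusted p = 0.00981, edgeR). Lipc, the hepatic lipase gene, fell by 2.82 (SE 0.47, adjusted p = 0.0204, edgeR), its mean being 27.4 CPM ± 9.46 (SD, n = 2) in APAP and 194 CPM ± 85.3 (SD, n = 3) in saline. Pon3, a related paraoxonase gene, fell by 1.10 (SE 0.21, adjusted p = 0.0321, edgeR). Abcg1, an exporter of cholesterol to HDL, rose from 3.80 CPM ± 0.412 to 11.7 CPM ± 1.20 (log2 fold change 1.62, SE 0.27, adjusted p = 0.0198, edgeR). Lcat, which encodes the enzyme that esterifies HDL cholesterol with ApoA-I as cofactor, measured 225 CPM ± 70.1 in APAP and 524 CPM ± 111 in saline and did not pass (log2 fold change -1.22, SE 0.32, adjusted p = 0.0726, edgeR), although the likelihood ratio test, the exact test and DESeq2 called it (adjusted p = 0.0186, 0.0208 and 0.00217). Without APAP 1 or WT2 none of these 4 calls held, with adjusted p of 0.0695 and 0.0564 for Pon1, 0.136 and 0.0815 for Lipc, 0.130 and 0.0933 for Abcg1, and 0.217 and 0.0935 for Pon3. Without APAP 3, Pon1 alone of the 4 held (adjusted p = 0.0315), and without WT1 or WT3 Pon3 was lost (adjusted p = 0.0605 and 0.0502). Pon3 was also lost with library size alone (log2 fold change -0.71, adjusted p = 0.0681).

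Among 13 tested uptake receptors and their partners, 1 was called, where 7.23% of all tested genes were called. The median log2 fold change of the 13 was -0.43. Vldlr, the very-low-density lipoprotein receptor gene, measured 1.23 and 2.72 CPM in APAP 1 and APAP 3 and 9.95, 26.4 and 16.3 CPM in WT1, WT2 and WT3. It fell by 3.15 on the log2 scale (SE 0.55, adjusted p = 0.0238, edgeR), and the adjusted p was 0.133 without APAP 1, 0.0513 without APAP 3 and 0.0820 without WT2, with a log2 fold change of -3.83 without APAP 3.

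Among 21 tested transcriptional regulators of apolipoprotein genes, 3 were called, and the median log2 fold change was -0.40. Egr1, an immediate-early gene, measured 134 and 294 CPM in APAP 1 and APAP 3 and 14.5, 8.97 and 19.9 CPM in saline. It rose with a log2 fold change of 3.89 (SE 0.45, adjusted p = 0.00666, edgeR) and was called in all 13 alternatives, with a log2 fold change of 3.20 without APAP 3. Cebpa, a hepatocyte transcription factor gene, fell by 1.35 (SE 0.26, adjusted p = 0.0330, edgeR), and Mlxipl, which encodes the carbohydrate response factor ChREBP, fell by 2.14 (SE 0.45, adjusted p = 0.0385, edgeR). The Cebpa call held only without WT3 among the 5 fits that left out a library, and the Mlxipl call only without WT1 (adjusted p up to 0.153 and 0.186). Both were also lost with library size alone (adjusted p = 0.0690 and 0.0722). Hnf4a measured 560 CPM ± 206 (SD, n = 2) in APAP and 1085 CPM ± 297 (SD, n = 3) in saline, with a log2 fold change of -0.95 that did not pass (SE 0.37, adjusted p = 0.172, edgeR), while DESeq2 called it (adjusted p = 0.0386). Ppara had a log2 fold change of 0.34 (SE 0.33, adjusted p = 0.583, edgeR).

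Among 14 tested genes known, like Apoa4, as targets of CREBH or PPARα in the fasted liver, 3 were called and all of these were higher, and the median log2 fold change was 0.59 against 0.03 for all tested genes. Cidec, a lipid droplet protein gene, measured 101 and 26.0 CPM in APAP 1 and APAP 3 and 0.448, 0.332 and 2.14 CPM in saline (log2 fold change 5.98, SE 0.86, adjusted p = 0.0136, edgeR). The counts of Cidec were 1715 and 420 in APAP and 5, 5 and 32 in saline. It passed the filter through the APAP libraries, so its direction was largely set in advance. Cidec was not tested where every library had to hold at least 10 counts. Plin2, which encodes the droplet coat protein perilipin 2, averaged 1760 CPM ± 202 (SD, n = 2) in APAP and 313 CPM ± 182 (SD, n = 3) in saline and rose with a log2 fold change of 2.49 (SE 0.50, adjusted p = 0.0352, edgeR). Ehhadh, a peroxisomal fatty acid oxidation enzyme gene, rose with a log2 fold change of 1.68 (SE 0.37, adjusted p = 0.0443, edgeR). The Plin2 and Ehhadh calls held without WT3 and were lost without each other library (adjusted p up to 0.146 and 0.218), and the Cidec call was lost without APAP 1, WT1 and WT2 (adjusted p up to 0.0663). The log2 fold change of Cidec was 4.70 without APAP 1, 6.64 without APAP 3 and 7.34 without WT3.

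**Figure D5:**
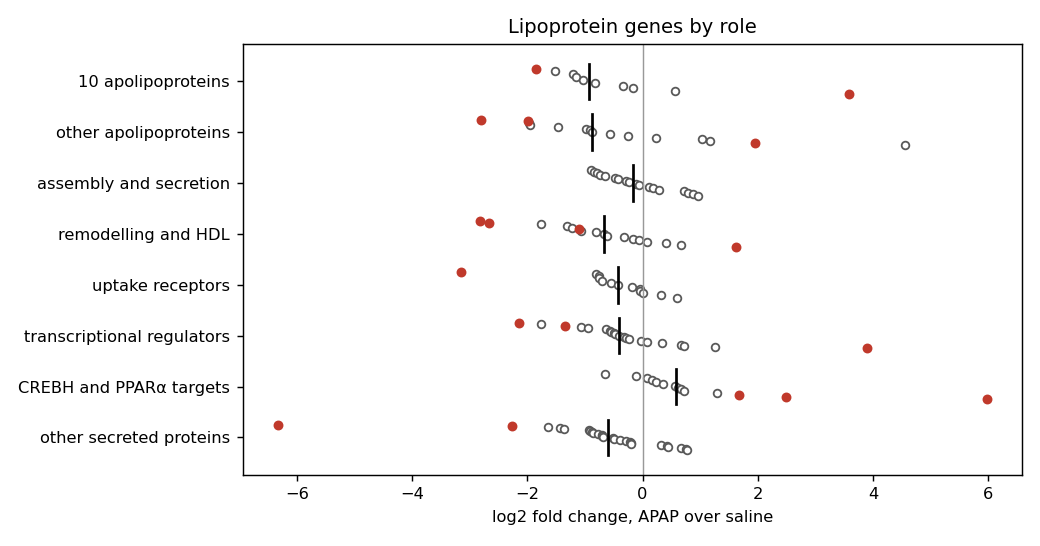
Log2 fold changes of APAP over saline of tested genes in 8 groups of lipoprotein and hepatocyte genes, with red points for an adjusted p under 0.05, open points for the rest and a black bar at each median. The medians lie at -0.93 for the 10 apolipoproteins, 0.59 for the CREBH and PPARα targets and -0.60 for other secreted hepatocyte proteins.

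Other secreted hepatocyte proteins gave a measure of how far the apolipoproteins moved with the secretory products of the same cell. Of 26 genes 2 were called, both lower, where 7.23% of all tested genes were called. The median log2 fold change of -0.60 stood beside -0.93 for the 10 apolipoproteins. Of the 26, 20 were fitted lower and 6 higher. Both APAP libraries lay below all saline libraries in 14 of the 26, where 20.1% of all tested genes did so. They lay above all saline libraries in 5 of the 26, and in 3291 of all 13734 tested genes. Among these 5, named after their values were seen, were Fga and Fgb, which encode fibrinogen chains, Hpx (hemopexin) and Cp (ceruloplasmin). Their log2 fold changes, from 0.32 to 0.77, did not pass. Alb measured 70671 CPM ± 27049 (SD, n = 2) in APAP and 114871 CPM ± 17668 (SD, n = 3) in saline (log2 fold change -0.70, SE 0.59, adjusted p = 0.512, edgeR). Ttr measured 2392 CPM ± 882 in APAP and 7437 CPM ± 2272 in saline (log2 fold change -1.64, SE 0.45, adjusted p = 0.0776, edgeR). Ttr was called with library size alone (adjusted p = 0.0433) and by the likelihood ratio test, the exact test and DESeq2 (adjusted p = 0.00362, 0.00420 and 0.000212). Ces1c, a plasma carboxylesterase gene, fell by 2.27 on the log2 scale (SE 0.37, adjusted p = 0.0185, edgeR). A1bg had 165, 374 and 92 counts in WT1, WT2 and WT3 and 0 and 6 counts in APAP 1 and APAP 3 (adjusted p = 0.0208, edgeR). It passed the filter through the saline libraries alone, and was not tested where every library had to hold at least 10 counts. Sex and APAP treatment cannot be told apart for this gene either. The Ces1c call was lost without APAP 1, APAP 3 and WT2 (adjusted p up to 0.124), and that of A1bg without APAP 1, WT1 and WT2 (adjusted p up to 0.0941). In all, 18 of 139 tested genes on these lists outside the 10 apolipoproteins were called, 8 higher and 10 lower. Of all tested genes, 7.23% were called by the same test.

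Markers of cell types moved with the groups beside these results. The summed level of 9 hepatocyte markers was 61324 and 101449 CPM in APAP and 117167 to 152861 CPM in saline, with 1 of the 9 called, lower. Most of this sum was Alb, at 51545 and 89798 CPM in APAP and 95101 to 129117 CPM in saline. After TMM scaling both APAP libraries lay below all saline libraries in 8 of the 9, where 20.1% of all tested genes did so. The 8 neutrophil markers summed to 61.1 to 98.5 CPM in APAP and 1.99 to 4.74 CPM in saline, with 2 of the 8 at 0 in every saline library. All 6 that were tested rose. Camp had 21 and 12 counts in APAP and 0 in each saline library, and Cxcr2 had 135 and 88 against 3, 0 and 10. Such genes passed the filter only through the APAP libraries, so their direction was largely set in advance. The 5 cholangiocyte markers summed to 347 to 355 CPM in APAP and 47.1 to 51.9 CPM in saline, and 2 of them, Sox9 and Spp1, rose. Krt19, Krt7 and Epcam were not called and made up little of the sum. They measured 23.6, 6.29 and 8.23 CPM in APAP 1 and 2.72, 2.10 and 2.41 CPM in APAP 3. Their highest saline values were 2.54, 1.13 and 2.34 CPM. The 6 infiltrating monocyte markers summed to 94.6 to 153 CPM in APAP and 74.5 to 111 CPM in saline, and 2 rose. The 6 endothelial markers summed to 109 to 182 CPM in APAP and 115 to 170 CPM in saline, and the 6 stellate cell markers to 288 to 352 CPM and 329 to 376 CPM. No endothelial marker was called by any of the 4 tests, with 1 at an unadjusted P under 0.05, and 1 stellate cell marker was called, higher. The 10 mitochondrial genes of highest count took 9.95% and 10.1% of counts in APAP and 11.1% to 15.9% in saline. The part of these cell types and of the mitochondrial share in the apolipoprotein results was not tested.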

How the data were processed

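Read counts per gene were deposited by the authors, who sequenced liver libraries on an Illumina platform and obtained counts with HISAT2. The submitters' processing notes name GRCm38 and mm10. The annotation, versions and use of strand are not given in the sources used here. Another 5 value columns, of FPKM, were not used. The columns named WT were read as saline, since the others are named for APAP; they could not be matched to single samples.

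Genes were filtered by expression (minimum count 10, minimum total 15), scaled by TMM and tested in edgeR 4.0.16 (R 4.3.3) by the quasi-likelihood test with Benjamini-Hochberg adjustment, APAP against saline, on counts as deposited. SE is the absolute log2 fold change over the root of F. Shares and ratios were tested by exact permutation (scipy 1.17.1). The fit was tested on simulated data. Alternatives were 3 scalings, 2 filters, DESeq2 1.42.0, the exact and likelihood ratio tests of edgeR, and leaving out each of the 5 libraries.

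Named were all 10 apolipoproteins, called genes of each list (at most 6), and Apoc2, Mttp, Lcat, Hnf4a, Creb3l3, Ppara, Alb and Ttr. 1 further gene of that rule is not reported here. Apoc4, Apof, Apon, Saa4, Lrp8 and the motifs were chosen after their values were seen. Members and lists were chosen with earlier results of these data known. Exonic lengths and overlaps came from GENCODE M21, which held 34267 of 34745 gene IDs.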

Additional observations from a re-analysis of the deposited data

How the results depend on the processing

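The number of the 10 apolipoprotein genes called was 2 under each of the 5 scaling and filter alternatives, always Apoa2 and Apoa4. It was 4 by the likelihood ratio test and 4 by the exact test, which added Apoe and Apoh, and 6 by DESeq2, which also added Apoc3 and Apom. Calls over all 13734 tested genes rose as well, from 993 in the main test to 1835 by the likelihood ratio test, 1776 by the exact test and 2093 by DESeq2. The number of the 10 genes called is given again for the fits that left out a library. It was 1, Apoa4, in each fit that left out a library (lowest 1, highest 1). Of the other lipoprotein and hepatocyte genes, 18 were called in the main test, 29 by the likelihood ratio test, 28 by the exact test, 48 by DESeq2, and from 1 to 15 when a library was left out. The difference in the share of all counts was -0.217 percentage points, -1.14 after TMM scaling, and from -0.385 to 0.0126 when a library was left out, the latter without WT1. Signs turned for Apoa5 (0.26 with library size alone, and 0.15 without APAP 3, within -0.60 to 0.15 over the left-out libraries), for Apob (0.046 with library size alone) and for Mttp (-0.024 without APAP 1 and -0.057 without WT2, the highest value being 0.22 over the left-out libraries and 0.53 with library size alone). The cause of these changes was not tested. The number of the 10 genes with non-overlapping ratios to Alb was 6, where 52.2% of all tested genes did not overlap. With Ttr it was 8, where 84.3% of all tested genes did not overlap. The number for Alb was from 6 to 8 when a saline library was left out. The share over all tested genes is not given for those fits, and fewer libraries separate more easily. Leaving out an APAP library leaves 1, which is assumed to vary like the saline libraries. No paired analysis was possible because the saline libraries are read as their group only, not to numbered samples. The group sizes of 2 and 3, rather than depth, limit the exact tests to p = 0.2 or more.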
